A study of Caenorhabditis elegans with 8 samples.

Results

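The genes described here encode the secreted peptides of *C. elegans*. They are the FMRFamide-related peptides (*flp* genes), the other neuropeptide-like proteins (*nlp* genes) and the insulin-like peptides (*ins* genes). A gene was included when its symbol in the deposited expression tables began with flp-, nlp- or ins-. This gave 114 of the 46739 gene IDs, made up of 31 *flp*, 44 *nlp* and 39 *ins* genes. Another 31 IDs carry such a symbol today but were listed under another symbol in the tables, and they were not included. The study asked which genes are misregulated in germlines that lack NMAD-1, an AlkB family demethylase, at 20°C and at 25°C. The 4 groups were *nmad-1*(ok3133) germlines at 20°C, WT (N2) germlines at 20°C, *nmad-1*(ok3133) germlines at 25°C and WT germlines at 25°C, each with 2 libraries (biological replicates, per the study's methods). Developmental stage was given as L4 for every sample, and each sample was mRNA from the pooled germlines of 100 worms. The mutant carries the deletion in every cell of the worm, since it is an allele and not a germline-restricted loss.

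Neuropeptides and insulin-like peptides are made as precursors, cut by proprotein convertases, trimmed, often amidated, and released from dense core vesicles. FLP and NLP peptides act mostly on G protein-coupled receptors and tune locomotion, egg laying, feeding and sleep, while the insulin-like peptides act as agonists or antagonists of the single insulin receptor DAF-2. Most of these genes are known for expression in neurons, and some for expression in the intestine or the epidermis. None of these tissues is part of the germ cell lineage.

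Values are normalized expected counts, the number of reads assigned to a gene after scaling between the libraries of a table. From the value of 1 read, each library was estimated to hold 18451560 to 33429410 reads. The *nmad-1* gene itself, F09F7.7 in the tables, was at 114 and 131 in *nmad-1* and 540 and 471 in WT at 20°C, and at 170 and 171 in *nmad-1* and 764 and 753 in WT at 25°C, which matches the labels. The columns carry no replicate number, so A and B only tell apart the 2 libraries of a group. Markers of germ cells were abundant in every library, and the 34 genes of that list summed to between 298942 and 599115. Markers of neurons (25 genes), muscle (21 genes) and intestine (19 genes) were also present, and none of them was at 0 in all 4 libraries of a temperature. *nmad-1* library A stood apart at 20°C: ribosomal RNA genes took 34.8% of its values, against 22.2% to 28.5% in the other 7 libraries, and its neuron list summed to 16932 where *nmad-1* library B had 8398 and the WT libraries 9295 and 10143.

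The families differed in how many genes were detected. Genes with a mean of at least 10 over the 4 libraries of a temperature were tested. At 20°C this held for 30 of 31 *flp*, 35 of 44 *nlp* and 9 of 39 *ins* genes, and at 25°C for 26 *flp*, 29 *nlp* and 5 *ins* genes. The *ins* family was mostly silent or near silent in these samples, with 9 of its members at 0 in all 4 libraries at 20°C and 10 at 25°C. A count of 0 allows up to 3 reads, worth between 2.33 and 4.42 normalized counts in these libraries, and this limit covers counting error only. No *flp* gene was at 0 in all 4 libraries of either temperature.

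Per kilobase of exon, the most abundant members at 20°C were *nlp-36* (mean of 1227 normalized counts per kb over the 4 libraries), *nlp-24* (720), *nlp-40* (630) and *flp-1* (483). At 25°C *nlp-36* (1250.5) and *nlp-40* (647) again had the highest levels per kb, and the next were *nlp-27* (238), *flp-28* (191) and *flp-10* (173). The highest *ins* gene was *ins-17* in both tables, at 157 per kb at 20°C and 98.7 at 25°C. *nlp-40* encodes a peptide that the intestine releases to drive the defecation rhythm, and *flp-1* acts in the control of locomotion. The exons of *nlp-36* share 11 bp with *dars-1* and those of *ins-34* share 82 bp with *nkcc-1*, both on the opposite strand. Without strand in the counting, which is not given in the sources used here, such reads cannot be told apart. In all, 19 members overlap an exon of another gene, 16 of them a protein-coding gene.

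The families also differ in where their genes lie. Of the 31 *flp* genes 13 are on chromosome X, of the 44 *nlp* genes 14 are on V and 10 on X, and of the 39 *ins* genes 16 are on II and 10 on I. Among protein-coding genes, 12 runs of 2 to 6 members lie next to each other with no other gene between. The longest holds 6 *nlp* genes on V (*nlp-34*, *nlp-31*, *nlp-30*, *nlp-29*, *nlp-28* and *nlp-27*), of which *nlp-29* and *nlp-31* are known as epidermal antimicrobial peptide genes. The next longest holds *ins-2* to *ins-6* on II.

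At 20°C the summed level of each family did not separate the genotypes. The 31 *flp* genes summed to 5287 and 1752 in *nmad-1* libraries A and B, against 2412 and 2773 in WT. The 44 *nlp* genes summed to 5843 and 2315 in *nmad-1* and to 4088 and 3738 in WT, and the 39 *ins* genes to 680 and 332 in *nmad-1* and to 477 and 457 in WT. In all 3 families *nmad-1* library A lay above both WT libraries and *nmad-1* library B below both, so the groups overlapped. The neuron marker list was spread over the *nmad-1* libraries in the same order.

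**Figure D1:**
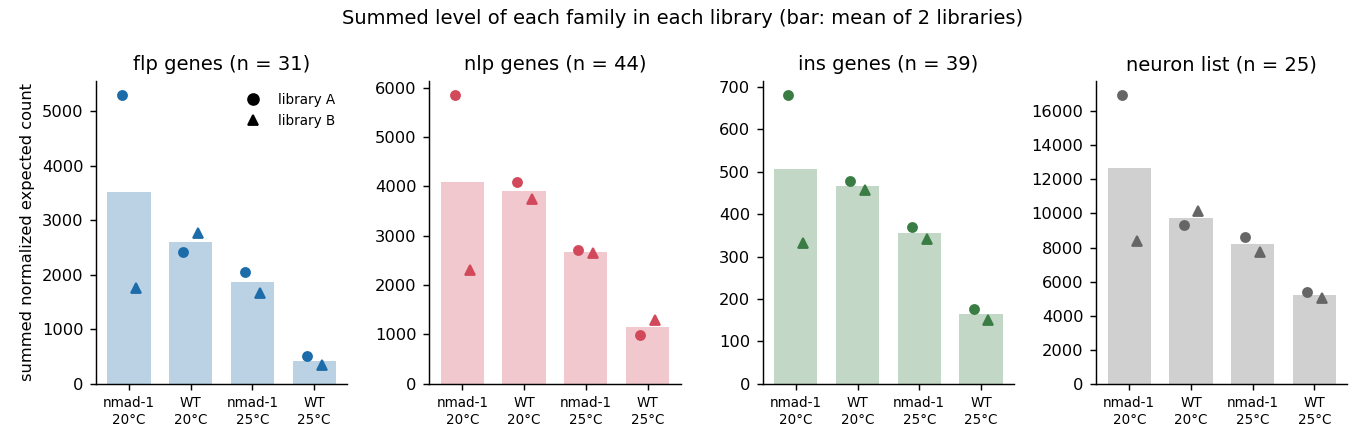
Summed normalized expected count (vertical axes, from 0) of the *flp*, *nlp* and *ins* genes and of the neuron marker list in each library, with *nmad-1* left of WT at each temperature. Circles and triangles are libraries A and B and bars are means of 2 libraries. At 25°C both *nmad-1* libraries lie above both WT libraries in all 4 panels, while at 20°C the *nmad-1* libraries lie on either side of WT. The temperatures were normalized separately, so bars are compared only within a temperature.

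This spread ran through nearly all of the tested members. Library A exceeded library B of *nmad-1* in 73 of the 74 members tested at 20°C, where 42.3% of all genes tested did so. Over the members tested the median ratio of library A to B was 2.98 (2.94 for *flp*, 3.31 for *nlp* and 2.75 for *ins*), against 0.889 over all genes tested, and in the WT libraries it was 0.94. For 62 of the 74 the *nmad-1* libraries lay on either side of both WT libraries, a pattern that was not counted over all genes. *flp-1* was at 600.2 and 208 in *nmad-1* and at 239 and 282 in WT, and *nlp-24* at 396 and 98.3 in *nmad-1* and at 286 and 306 in WT. The median ratio of A to B was 2.66 over the neuron list and 2.43 over the muscle list, but 0.706 over the germ cell list and 0.81 over the intestine list. The part of these other tissues in the spread of the peptide genes was not tested.

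A few members did not share the spread. The ratio of *nmad-1* library A to B was 1.01 for *flp-10*, 1.03 for *nlp-36*, 1.07 for *ins-5*, 1.23 for *nlp-40* and 0.82 for *ins-34*. *flp-10* had 87.9 and 87.3 in *nmad-1* and 78.0 and 67.5 in WT. *nlp-40* had 519 and 421 in *nmad-1* and 414 and 446 in WT. *ins-34* was the member with library B above A, at 48.1 and 58.5 in *nmad-1* and 73.6 and 76.3 in WT.

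**Figure D2:**
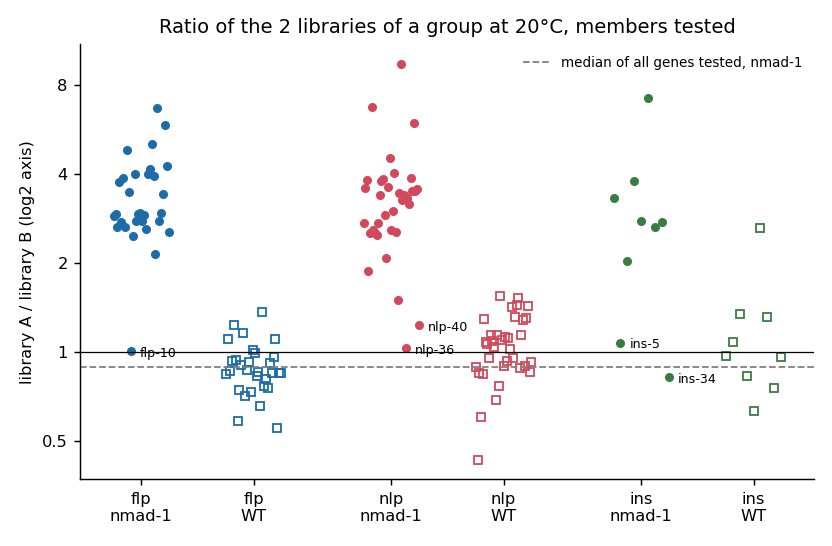
Ratio of library A to library B of the same group at 20°C (log2 axis) for each member tested, filled circles for *nmad-1* and open squares for WT, by family. The *nmad-1* ratios lie around 3 in each family, with a median of 2.98 and 67 of 74 above 2, and the 5 labelled genes lie between 0.82 and 1.23. *nlp-28* and *nlp-5* were the next lowest, and *nlp-30* (9.46) was the highest. The WT ratios lie around 1, and the dashed line is the *nmad-1* median of 0.889 over all genes tested.

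No member passed the test between genotypes at 20°C. Of the 74 tested, 0 had an adjusted p under 0.05 (limma with Benjamini-Hochberg adjustment over 12260 genes), where 0.481% of all genes tested did. At an unadjusted p under 0.05 the count was 1, against 6.88% of all genes. That member was *nlp-27*, at 160.0 and 62.7 in *nmad-1* and at 197 and 177 in WT, with a log2 fold change of -0.89 and an adjusted p of 0.49. The median log2 fold change was 0.19 over the *flp*, 0.00 over the *nlp* and 0.30 over the *ins* genes tested, and -0.05 over all genes. Both *nmad-1* libraries were above both WT libraries for *flp-10*, *ins-5* and *nlp-5* and below both for *ins-34*, *nlp-27* and *nlp-36*, that is 3 and 3 of 74, where 16.6% and 19.1% of all genes tested did so. The direction turned on 1 library. Without *nmad-1* library A the median log2 fold change was -0.58 over *flp*, -0.84 over *nlp* and -0.40 over *ins*, and 0.0022 over all genes. Without *nmad-1* library B it was 1.02, 0.81 and 0.85, and -0.079 over all genes. Each of these fits leaves 1 *nmad-1* library, so its p-values hold no spread between *nmad-1* libraries and its calls are not counted here.

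At 25°C the peptide genes were higher in *nmad-1* germlines, with the largest ratio of family sums for the *flp* genes. The *flp* sum was 2058 and 1667 in *nmad-1* against 500.1 and 345 in WT, a ratio of means of 4.41. The *nlp* sum was 2704 and 2656 in *nmad-1* against 997 and 1289 in WT, a ratio of 2.34, and the *ins* sum 371 and 341 in *nmad-1* against 177 and 150 in WT, a ratio of 2.17. The groups did not overlap in any family. Of 60 members tested, 46 were higher (25 of 26 *flp*, 19 of 29 *nlp* and 2 of 5 *ins*) and 1 was lower, where 32.8% of all genes tested were higher and 38% lower. The median log2 fold change was 2.21 over *flp*, 1.97 over *nlp* and 1.28 over *ins*, against -0.09 over all genes. Without *nmad-1* library A it was 2.01, 1.95 and 0.93, against -0.14 over all genes. Both *nmad-1* libraries were above both WT libraries for 54 of the 60 and below for 1, against 41.6% and 46.7% of all genes tested. In such bulk samples, fewer cells of a type and less RNA per cell cannot be told apart. P-values measure only the spread between the 2 libraries of each group.

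The filter on the mean bears on these counts. Of the 60 members tested 20 had a WT mean under 10, so they entered the test through their *nmad-1* values and had to differ. Of the other 40, 29 were higher (15 of 15 *flp*, 13 of 22 *nlp* and 1 of 3 *ins*) and 1 was lower, where 23.1% of all genes with such a WT mean were higher and 45.1% lower. A further 54 members were not tested, 13 of them at 0 in all 4 libraries. Among these 54 both *nmad-1* libraries were above both WT libraries for 22 and below for 0, at means of up to 9.97. The share of all genes below the filter that did so was not counted, so the 22 is no result about the members. Without the filter the median log2 fold change over all 19175 genes was 0.41.

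**Figure D3:**
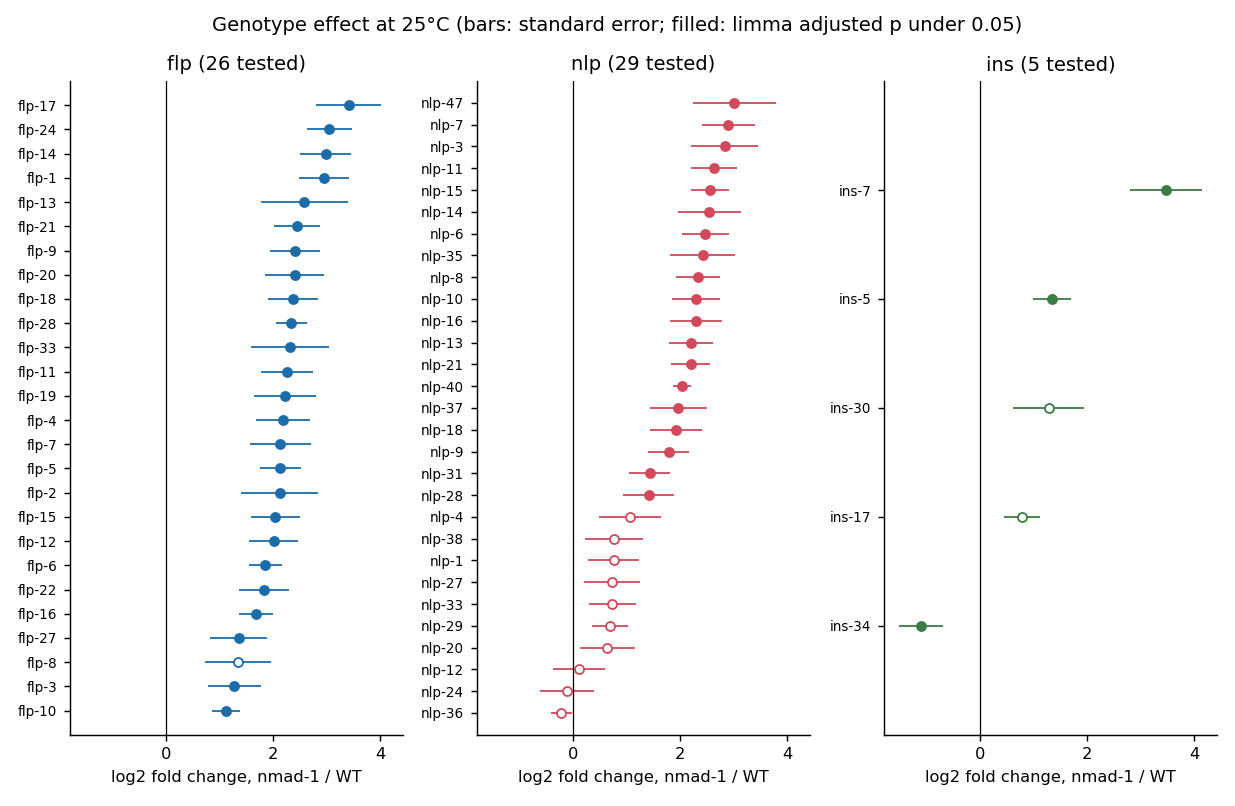
Log2 fold change between *nmad-1* and WT at 25°C (horizontal axes) for the 26 *flp*, 29 *nlp* and 5 *ins* genes tested, with bars of 1 standard error. Filled circles passed the limma test at an adjusted p of 0.05. Every *flp* gene lies above 0, from 1.12 for *flp-10* to 3.41 for *flp-17*, while *nlp-36*, *nlp-24* and *ins-34* lie below 0.

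The *flp* genes with the largest increases at 25°C were *flp-17*, *flp-24*, *flp-14*, *flp-1* and *flp-13*. *flp-17*, which encodes a peptide of the BAG sensory neurons that inhibits egg laying, was at 69.8 and 39.5 in *nmad-1* and at 6.93 and 2.19 in WT (log2 fold change 3.41, SE 0.60, adjusted p = 0.0016). *flp-24* was at 128 and 96.9 in *nmad-1* and at 17.8 and 8.77 in WT (3.05, SE 0.42, adjusted p = 0.00060). *flp-1* was at 154 and 178 in *nmad-1* and at 34.7 and 12.1 in WT, a log2 fold change of 2.95 (SE 0.46). The groups of all 3 genes were far apart, although *flp-1* and *flp-17* each varied about 3-fold between the WT libraries (2.87 and 3.16). The WT mean of *flp-17* was 4.56, so this gene passed the filter only through its *nmad-1* values. *flp-24* and *flp-13* are known for their part in sleep after cellular stress, through the ALA neuron. *flp-13* was at 64.1 and 34.1 in *nmad-1* and at 18.8 and 2.19 in WT (2.59, SE 0.82, adjusted p = 0.021). With a library left out its log2 fold change varied widely, between 1.27 and 3.90.

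The *flp* gene with the smallest increase was *flp-10*, which per kb was 1 of the 2 most abundant *flp* genes at 25°C. *flp-10*, whose peptide acts with that of *flp-17* on the receptor EGL-6, was at 167 and 154 in *nmad-1* and at 61.4 and 87.7 in WT (log2 fold change 1.12, SE 0.26, adjusted p = 0.0054). *flp-6* was among the 3 *flp* genes with the highest mean at 20°C (322 and 83.1 in *nmad-1*, 159 and 169 in WT, log2 fold change 0.00). At 25°C it was at 120.1 and 96.9 in *nmad-1* and at 29.7 and 28.5 in WT (1.85, SE 0.30, adjusted p = 0.0011). The receptor gene *egl-6* was at 162 and 139 in *nmad-1* and at 134 and 125 in WT, with a log2 fold change of 0.21 (adjusted p = 0.39), which was -0.96 on the neuron list (adjusted p = 0.0080). The peptides of *flp-18* and *flp-21* bind the receptor NPR-1, and both genes were higher. *flp-18* was at 83.5 and 65.9 in *nmad-1* and at 20.8 and 8.77 in WT (2.36, SE 0.47). *flp-21* was at 52.6 and 47.3 in *nmad-1* and at 7.92 and 8.77 in WT (2.45, SE 0.43). Its WT mean was 8.35, so it passed the filter only through its *nmad-1* values. The 1 *flp* gene tested and not called was *flp-8*, at 24 and 19.4 in *nmad-1* and at 13.9 and 4.39 in WT (adjusted p = 0.081). *flp-3* and *flp-27* were the *flp* calls nearest the threshold, with adjusted p of 0.045 and 0.048. With a library left out their log2 fold changes lay between 0.94 and 1.61 and between 1.05 and 1.67. The WT mean of *flp-8* was 9.13 and both WT values of *flp-27* were under 10. Both *flp-8* and *flp-27* thus passed the filter only through their *nmad-1* values.

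The 3 largest increases among the *nlp* genes were in *nlp-47*, *nlp-7* and *nlp-3*, which had WT means under 10 and so passed the filter only through their *nmad-1* values. *nlp-47* was at 44.6 and 31.8 in *nmad-1* and at 9.90 and 1.10 in WT (log2 fold change 3.02, SE 0.78, adjusted p = 0.0089). *nlp-7* was at 38.9 and 36.4 in *nmad-1* and at 3.96 and 4.39 in WT (2.9, SE 0.50, adjusted p = 0.0014). *nlp-3*, a peptide gene of the egg-laying neurons HSN, was at 69.8 and 26.4 in *nmad-1* and at 7.92 and 3.29 in WT (2.83, SE 0.63, adjusted p = 0.0046). The groups did not overlap for any of the 3. *nlp-11*, at 84.7 and 86 in *nmad-1* and at 18.8 and 8.77 in WT, and *nlp-15*, an orcokinin-like gene, at 103 and 79.8 in *nmad-1* and at 14.9 and 14.3 in WT, rose by 2.63 (SE 0.44) and 2.56 (SE 0.36).

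*nlp-40*, the intestinal peptide gene, was the member with the smallest standard error. It was at 658 and 830 in *nmad-1* and at 164 and 196 in WT, a log2 fold change of 2.03 (SE 0.18, adjusted p = 0.00020). Its *nmad-1* libraries lay more than 3-fold above both WT libraries (ratio of means 4.12). The intestine list as a whole was higher in *nmad-1* at 25°C (15 of 18 tested higher and 1 lower, median log2 fold change 2.29), where 32.8% of all genes tested were higher and 38% lower. Its sums were 98835 and 330860 in *nmad-1* and 46971 and 87341 in WT, and the part of the intestine in the *nlp-40* result was not tested. The *nmad-1* libraries differed in that list with a ratio of A to B of 0.299, where *nlp-40* had 0.79. *nlp-37*, which encodes the pigment dispersing factor PDF-2 and is named *pdf-2* today, was at 29.7 and 25.6 in *nmad-1* and at 8.91 and 4.39 in WT (1.97, SE 0.54, adjusted p = 0.011). Both WT values were under 10, so *nlp-37* passed the filter only through its *nmad-1* values.

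The *nlp* genes that did not pass at 25°C were 10 of the 29 tested, and they included *nlp-27* and *nlp-29* of the run on V. Of the 6 neighbouring genes on V, 4 were tested and 2 were called, *nlp-31* (44.6 and 64.3 in *nmad-1*, 18.8 and 19.7 in WT, log2 fold change 1.43) and *nlp-28* (22.9 and 31 in *nmad-1*, 8.91 and 9.87 in WT, 1.41). The WT mean of *nlp-28* was 9.39, so *nlp-28* passed the filter only through its *nmad-1* values. *nlp-29* was at 50.3 and 62.0 in *nmad-1* and at 30.7 and 38.4 in WT (0.69, SE 0.34, adjusted p = 0.10). *nlp-27* was at 58.3 and 126 in *nmad-1* and at 30.7 and 85.5 in WT (0.73, adjusted p = 0.24), so its groups overlapped. The median log2 fold change was 1.07 over these 4 genes and 2.2 over the other 25 *nlp* genes tested, a difference that was not tested. The groups also overlapped for *nlp-12*, a cholecystokinin-like gene (25.2 and 30.2 in *nmad-1*, 16.8 and 38.4 in WT), for *nlp-20*, and for *nlp-24*, at 32 and 24.8 in *nmad-1* and at 18.8 and 49.4 in WT.

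*nlp-36* had the highest level per kb and no increase. It was at 400.4 and 405 in *nmad-1* and at 384 and 571 in WT (log2 fold change -0.22, SE 0.19, adjusted p = 0.33). Scaled on the germ cell list its log2 fold change was 0.57 with an adjusted p of 0.027, and scaled on the neuron list -1.40, so its direction depended on the scaling. The overlapping gene *dars-1*, an aspartyl-tRNA synthetase gene, was at 4025 and 4336 in *nmad-1* and at 8341 and 8342 in WT.

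Of the 5 *ins* genes tested at 25°C, 2 were higher and 1 lower. *ins-7*, an agonist of DAF-2 made in neurons and intestine, was at 28.6 and 51.2 in *nmad-1* and at 4.95 and 1.10 in WT (log2 fold change 3.48, SE 0.68, adjusted p = 0.0024). Its WT mean was 3.02, so it passed the filter only through its *nmad-1* values. *ins-5* was at 70.9 and 63.6 in *nmad-1* and at 30.7 and 21.9 in WT (1.34, SE 0.35, adjusted p = 0.0093). *ins-17* was at 78.9 and 60.5 in *nmad-1* and at 46.5 and 34 in WT, which did not pass (0.78, SE 0.33, adjusted p = 0.064). The groups of these 3 genes did not overlap. *ins-2*, the first gene of the run on II, had 17.2 and 12.4 in *nmad-1* and 0 in both WT libraries, at least 4.72-fold higher when WT is set to 3 reads per library, and it was below the filter for testing. In the same run *ins-4* was at 10.3 and 18.6 in *nmad-1* and at 1.98 and 2.19 in WT, and *ins-6*, an agonist that promotes exit from dauer, at 9.15 and 5.43 in *nmad-1* and at 0.99 and 0 in WT.

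*ins-34* was lower, at 18.3 and 34.1 in *nmad-1* and at 49.5 and 61.4 in WT (log2 fold change -1.11, SE 0.41, adjusted p = 0.039). Its groups did not overlap at either temperature. The call was near the threshold: it held in 3 of 9 other settings, where its log2 fold change lay between -2.25 and -0.34. With a library left out the log2 fold change of *ins-34* lay between -1.54 and -0.68. The gene it overlaps, *nkcc-1*, was lower in *nmad-1* too, at 4035 and 3832 against 6199 and 6099 in WT (-0.64, adjusted p = 0.00054). *ins-1* and *ins-18*, both known as antagonists of DAF-2, were below the filter at 25°C. *ins-18* was at 17.2 and 11.6 in *nmad-1* and at 8.91 and 2.19 in WT, and *ins-1* at 8.01 and 10.1 in *nmad-1* and at 2.97 and 3.29 in WT.

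Genes of low abundance were higher in *nmad-1* at 25°C in general. Of the 60 members tested, 57 were in the 4 lowest deciles of all genes tested by mean value, in which 50.1%, 60.1%, 62.5% and 61.1% of all genes were higher. The members called higher in these deciles were 5 of 9, 14 of 17, 18 of 22 and 7 of 9. The median log2 fold change of the members was 1.36, 2.04, 2.25 and 2.26 in these deciles, against 1.51, 1.68, 1.43 and 1.16 over all genes of the same decile. In the 3 upper deciles of these 4 the members thus had the higher median, and in the lowest the lower one. No list was tested against these genes.

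**Figure D4:**
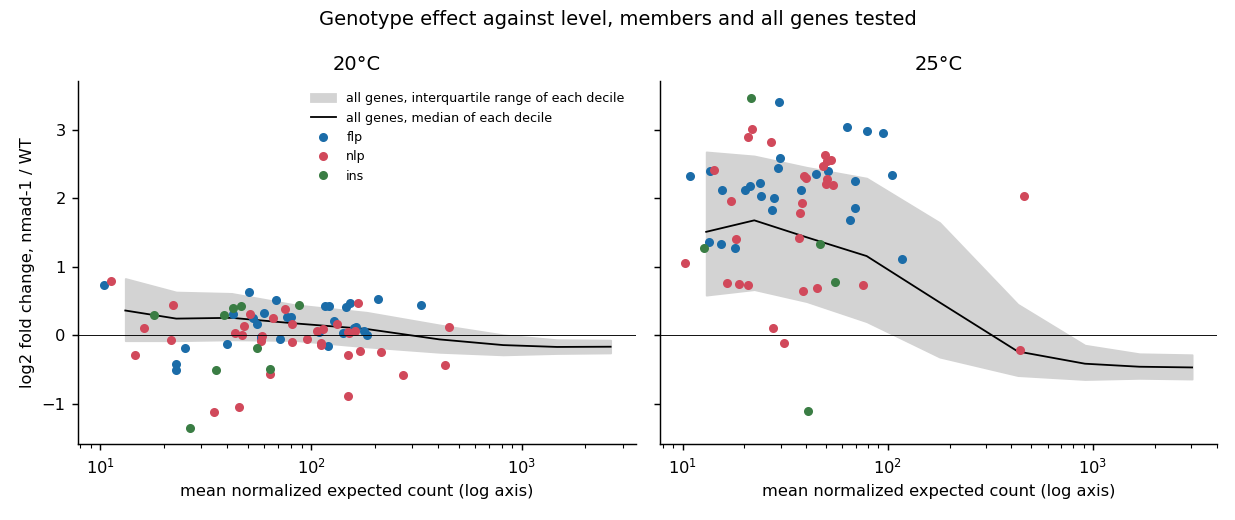
Log2 fold change between *nmad-1* and WT (vertical axes) against the mean normalized expected count (log axes) at 20°C and 25°C, for *flp*, *nlp* and *ins* genes. The black line and grey band are the median and the interquartile range of all genes in each of the 9 lower deciles by mean. At 25°C the median of all genes is 1.51 in the lowest decile and -0.47 in the ninth, and most members lie at means under 113.3, the upper end of the fourth decile.

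Most markers of neurons and muscle were higher at 25°C too, where 32.8% of all genes tested were higher and 38% lower. Of the neuron list 14 of 21 genes tested were higher and 0 lower (median log2 fold change 1.19), with sums of 7764 to 8623 in *nmad-1* and 5027 to 5381 in WT. Of the muscle list 19 of 21 were higher (median 0.99, sums of 35539 to 39065 in *nmad-1* and 15398 to 20684 in WT). The epidermis list had 7 of 16 higher and 2 lower (median 0.68), with *rol-6* at 0 in all 4 libraries, and the gonadal sheath and spermatheca list 5 of 12 higher and 3 lower (median 0.50). In both lists the share of higher genes was near that of all genes. The part of these tissues in the result was not tested. All 34 genes of the germ cell list were lower (median -0.70, sums of 298942 to 313149 in *nmad-1* and 563714 to 599115 in WT), and of 20 sperm genes tested 18 were higher and 1 lower (median 4.56, sums of 5514 to 6144 in *nmad-1* and 4244 to 4337 in WT).

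The family sums were also higher relative to the sum of the neuron list. Such sums weigh the most abundant genes most, and not every member was higher relative to the list. The *flp* sum divided by the neuron list sum was 0.239 and 0.215 in *nmad-1* and 0.093 and 0.069 in WT at 25°C. The ratio was 0.314 and 0.342 in *nmad-1* and 0.185 and 0.256 in WT for *nlp*, and 0.043 and 0.044 in *nmad-1* and 0.033 and 0.030 in WT for *ins*. With every library scaled on the neuron list, which was chosen after seeing the data, 24 members were higher and 3 lower, where 1865 of all 11955 genes were higher and 6871 lower, and 25 of the 47 calls remained in the same direction. The median log2 fold change was then 1.10 over *flp*, 0.86 over *nlp* and 0.19 over *ins*, where all genes had -1.26. The 3 lower members were *ins-34* (-2.25), *nlp-36* (-1.40) and *nlp-24* (-1.25), and *flp-10* had -0.050.

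Both the split of all genes and that of the members moved with the scaling. The deposited values gave 3917 genes higher and 4545 lower at 25°C, and libraries scaled to the same total 6029 higher and 770 lower. The median of all genes moved to 0.48 with the same total, 0.30 with the upper quartile, 0.47 with the same total outside ribosomal RNA and 0.69 with the germ cell list. Under these 4 scalings 53, 48, 54 and 57 members were higher and 0 were lower, where of all genes 6029, 4903, 5823 and 8125 were higher and 770, 1696, 700 and 320 lower.

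On a scale of CPM over genes outside ribosomal RNA, which sets the tables side by side only as a description, the *flp* genes took 112.7 ± 18.8 CPM in *nmad-1* and 17.4 ± 5.35 in WT at 25°C, and 208 ± 169 in *nmad-1* and 124 ± 14.6 in WT at 20°C (SD, n = 2 each). The *nlp* genes took 162 ± 5.05 in *nmad-1* and 46.4 ± 6 in WT at 25°C, and 239 ± 174 in *nmad-1* and 188 ± 8.25 in WT at 20°C. The *ins* genes took 21.5 ± 1.66 in *nmad-1* and 6.70 ± 1.12 in WT at 25°C, and 29.4 ± 18 in *nmad-1* and 22.4 ± 0.24 in WT at 20°C. In each family the lowest values were those of WT at 25°C, with the other 3 groups higher.

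The genotype effect differed between the temperatures for some members. In the test of the interaction of genotype and temperature over all 8 libraries, 9 of 58 members tested passed, all with a larger effect at 25°C, where 9.32% of all 11265 genes passed and 8.07% in that direction. They were 4 of 26 *flp*, 5 of 28 *nlp* and 0 of 4 *ins* genes. At an unadjusted p under 0.05 the count was 35 of 58, against 28.2% of all genes. The gene with the smallest adjusted p was *nlp-40*, with a difference in log2 fold change of 1.91 (SE 0.30, adjusted p = 0.0075), and *flp-24* (3.01, adjusted p = 0.021) was next. With libraries scaled to the same total, 1747 of all 11265 genes passed with a larger and 27 with a smaller log2 fold change at 25°C. These were 248 and 102 with the upper quartile, 715 and 63 outside ribosomal RNA and 412 and 16 on the germ cell list. With limma fitted without the trend they were 4 and 0. The count of members was 16 with the same total, 1 under each of the 3 other scalings and 0 without the trend. Fits with a library left out leave 1 library in a group, so their calls are not counted here. In them the difference was 1.74 to 2.08 for *nlp-40* and 2.24 to 3.79 for *flp-24*. *nlp-40* was still called under 8 of the 10 alternatives other than leaving out a library, all but the fit without the trend and the neuron list scaling.

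Most genes that process and release these peptides were higher at 25°C too. Of 19 such genes tested 14 were higher and 2 lower (median log2 fold change 1.39), where 32.8% of all genes were higher and 38% lower. Scaled on the neuron list 7 were higher and 5 lower (median 0.22), and with the same total 17 were higher and 0 lower. Here and below, the counts of all genes under the same scaling are those given above. The convertase gene *egl-3* was at 1246 and 977 in *nmad-1* and at 252 and 131 in WT (2.60, SE 0.28, adjusted p = 0.00028), and *sbt-1*, which encodes its 7B2 chaperone, at 356 and 278 in *nmad-1* and at 68.3 and 53.7 in WT (2.36, SE 0.24). The carboxypeptidase gene *egl-21* rose by 1.44 (SE 0.16), the amidation genes *pghm-1* and *pgal-1* by 2.12 (SE 0.33) and 2.04 (SE 0.27), and the convertase gene *aex-5* by 2.19 (SE 0.36). *unc-31*, needed for dense core vesicle release, was at 83.5 and 71.3 in *nmad-1* and at 48.5 and 30.7 in WT (0.98, SE 0.34, adjusted p = 0.031), and its log2 fold change was -0.18 on the neuron list. The lower genes were *dpt-1* (log2 fold change -0.79) and the convertase gene *bli-4* (-0.30), which had far higher values, 5642 and 5271 in *nmad-1* and 6786 and 6612 in WT. *bli-4* was above 0 with the same total, with or without ribosomal RNA, with the upper quartile and on the germ cell list (0.10 to 0.49), and *dpt-1* was at 0.00 on the germ cell list. One of the 14 higher genes, *egl-36*, encodes a potassium channel. At 20°C 0 of the 19 passed, where 0.481% of all genes tested did. *egl-3* was then at 3548 and 1430 in *nmad-1* and at 1397 and 1771 in WT.

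Most receptor genes did not pass. Of 81 FLP and NLP receptor genes, 35 were tested at 25°C, and 8 of them were higher and 2 lower (median log2 fold change 0.70), a smaller share in each direction than the 32.8% and 38% of all genes. With the same total 13 were higher and 0 lower, and on the neuron list 2 were higher and 7 lower. The cholecystokinin receptor gene *ckr-2* was at 50.3 and 63.6 in *nmad-1* and at 6.93 and 8.77 in WT (2.71, SE 0.43, adjusted p = 0.0010). *npr-28* (2.71), *nmur-3* (2.65), *frpr-11* (2.28) and *npr-4* (1.74) were the other largest increases, and *sprr-2* (-1.43) and *frpr-19* (-0.97) were lower. *npr-28* was at 29.7 and 103.9 in *nmad-1* and at 8.91 and 6.58 in WT, so the mutant libraries were far apart (ratio of A to B 0.286). The WT values of *ckr-2* and *npr-28* were under 10, so both passed the filter only through their *nmad-1* values. Those of *nmur-3*, *frpr-11* and *npr-4* are not given here, and the same limit may hold for them. At 20°C 0 of 47 receptor genes tested passed, where 0.481% of all genes tested did.

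Of 20 insulin pathway genes tested at 25°C, 5 were higher and 9 lower (median log2 fold change -0.28), near the 32.8% and 38% of all genes. The split depended on the scaling, with 11 higher and 1 lower with the same total and 1 higher and 16 lower on the neuron list. *sgk-1*, a kinase gene, was at 86.9 and 160.5 in *nmad-1* and at 4.95 and 11 in WT (3.82, SE 0.49, adjusted p = 0.00046), and its interaction with temperature passed too (adjusted p = 0.013). The WT mean of *sgk-1* was under 10, so at 25°C it passed the filter only through its *nmad-1* values. *ist-1* (1.53), *akt-2* (1.16), *unc-31* (0.98) and the FOXO gene *daf-16* (0.34) were the others higher. Among the lower genes were *par-5* (-1.10), *ddl-1* (-0.86), the PI3 kinase gene *age-1* (-0.66) and *hsf-1* (-0.50). Scaled on the germ cell list *age-1* and *hsf-1* had log2 fold changes above 0 (0.13 and 0.29) and *ddl-1* had -0.08, and scaled on the neuron list *akt-2* and *daf-16* had values below 0 (-0.011 and -0.84). The receptor gene *daf-2* was at 6010 and 6759 in *nmad-1* and at 7508 and 7376 in WT (-0.22, SE 0.09, adjusted p = 0.062), and with the same total its log2 fold change was 0.35 (adjusted p = 0.017), and on the neuron list -1.40. At 20°C 0 of the 20 passed, where 0.481% of all genes tested did.

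Of other secreted peptide genes, 7 of 9 tested at 25°C were higher and 0 lower (median log2 fold change 1.26), where 32.8% of all genes tested were higher and 38% lower. Scaled on the neuron list 1 was higher and 0 lower, where 1865 of all 11955 genes were higher and 6871 lower. The 7 higher genes included *pdf-1*, a pigment dispersing factor gene, at 182 and 168 in *nmad-1* and at 59.4 and 40.6 in WT (1.81, SE 0.28, adjusted p = 0.00087). *snet-1* rose by 2.14 (SE 0.50), and the caenacin genes *cnc-4*, *cnc-3* and *cnc-10*, which encode antimicrobial peptides, by 1.78 (SE 0.59), 1.32 (SE 0.50) and 1.26 (SE 0.35). Their WT values are not given here, and *cnc-3* may have passed the filter only through its *nmad-1* values. *daf-28*, an insulin-like gene with a symbol of its own, was at 3.43 and 0 in *nmad-1* and at 1.98 and 1.10 in WT at 25°C, too low to be tested. At 20°C 0 of 12 such genes tested passed, where 0.481% of all genes tested did.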

How the data were processed

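Expression was measured by mRNA sequencing in 8 libraries. The authors aligned reads with Bowtie2 (2.2.9) to WS220 (ce10) and quantified them with RSEM (1.3.0) and EBSeq. The deposited signal per gene is RSEM's expected count over a library size factor, with a separate table for each temperature. Between 90.6% and 91.9% of values were whole multiples of 1 read (tolerance 0.01), too few for a count test. Tables with the authors' own posterior probabilities and fold changes were not used. Columns were put in groups by the comparison named in the sample descriptions. Between the libraries of a group, chi-square per degree of freedom was 10.9 to 64.1, above sampling noise.

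Genes with a mean of at least 10 were tested with limma 3.58.1 (R 4.3.3) on log2(value + 1), with a variance trend, no covariates and Benjamini-Hochberg adjustment at 0.05. Fold changes are on that scale, which understates changes of low genes. Exon lengths, overlaps and gene order came from WBcel235, another build, so no coordinates are given. The code was tested on simulated data. Alternatives were pseudocounts of 0.5 and 5, no filter, a mean of at least 50, 4 scalings, no trend, leaving out each library, and, chosen after seeing the data, scaling on the neuron list. A fit with a library left out leaves 1 library in a group, so only its fold changes are given.

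Members and lists were chosen with earlier results of these data known. Named by rule were the 3 members with the highest mean in each family and table, the 5 largest called increases and decreases, interaction calls, members at 0 in one genotype only, the largest called changes of each pathway list, and *egl-3*, *egl-21*, *sbt-1*, *unc-31*, *daf-2*, *daf-28*, *pdf-1* and *pdf-2*. Others were named after their values were seen, such as *flp-3*, *flp-8*, *flp-18*, *flp-21*, *flp-27*, *nlp-5*, *nlp-12*, *nlp-20*, *nlp-28* to *nlp-31*, *ins-1*, *ins-4*, *ins-6*, *egl-6* and *egl-36*. One gene that this rule names is not reported here.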

Additional observations from a re-analysis of the deposited data

Results flagged for a closer look

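The genotype effect differed between 20°C and 25°C for 9 members in the limma test of the interaction, each with the larger effect at 25°C. The difference in log2 fold change (25°C minus 20°C) was 2.51 for *flp-1*, 3.20 for *flp-17*, 3.01 for *flp-24*, 2.22 for *flp-28*, 2.62 for *nlp-6*, 2.17 for *nlp-8*, 2.57 for *nlp-11*, 2.35 for *nlp-16* and 1.91 for *nlp-40*, with adjusted p between 0.0075 and 0.049.

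*flp-28* was at 188 and 163 in *nmad-1* and at 39.6 and 28.5 in WT at 25°C, and at 255 and 100.0 in *nmad-1* and at 135 and 160 in WT at 20°C. *nlp-8*, known with *flp-13* and *flp-24* for stress-induced sleep, was at 72.1 and 58.9 in *nmad-1* and at 14.9 and 9.87 in WT at 25°C. *nlp-6* was at 99.5 and 65.1 in *nmad-1* and at 18.8 and 9.87 in WT, and *nlp-16* at 98.4 and 69.0 in *nmad-1* and at 25.8 and 9.87 in WT. For 8 of the 9 genes, all but *nlp-40*, the *nmad-1* libraries at 20°C differed by more than 2-fold (ratios of A to B between 2.08 and 2.95), and the part of that spread in the result was not tested.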

How the results depend on the processing

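No paired analysis was possible because the columns carry no replicate numbers. At 20°C the count of members called stayed at 0 under every alternative except leaving out a library (0 to 30), and that of processing and receptor genes was 0 (0 to 10 with a library left out). Median log2 fold changes at 20°C with a library left out were -0.58 to 1.02 for *flp*, -0.84 to 0.81 for *nlp* and -0.40 to 0.85 for *ins*. At 25°C the 47 calls became 15 with a mean of at least 50, where 18 members were tested and 1933 of all 8530 genes were higher and 4487 lower. Scaled on the neuron list they became 27, and the counts of all genes under that scaling are given above. The 26 processing and receptor calls (22 higher and 4 lower) became 17 (14 higher and 3 lower) with a mean of at least 50, where 20 were tested. They were 30, 27, 31 and 35 with the same total, the upper quartile, outside ribosomal RNA and on the germ cell list, with 1 lower under the upper quartile and 0 under the other 3, and 21 (9 higher and 12 lower) on the neuron list. The *flp*, *nlp* and *ins* medians at 25°C moved to 2.73, 2.49 and 1.79 with the same total, 2.73, 2.48 and 1.79 with the same total outside ribosomal RNA, 2.92, 2.68 and 1.98 on the germ cell list, and 1.10, 0.86 and 0.19 on the neuron list. *flp* and *nlp* gave 1.74 and 1.68 with a pseudocount of 5, *nlp* 2.32 with the upper quartile, and *nlp* and *ins* 2.2 and 0.78 with a mean of at least 50. With a library left out they were 1.81 to 2.45, 1.64 to 2.15 and 0.93 to 1.72. For the interaction counts that follow, those of all genes under the 4 scalings and without the trend are given above. The 9 interaction calls became 16 with the same total, 1 with the upper quartile, outside ribosomal RNA or on the germ cell list, 0 without the trend (29 at an unadjusted p under 0.05) and 0 on the neuron list (9 unadjusted), and 1 to 45 with a library left out (at 20°C 45 without *nmad-1* A, 1 without B, 3 without WT A and 1 without B, and at 25°C 16 without WT A and 2 without B). At 20°C log2 fold changes changed sign without *nmad-1* library B for members such as *nlp-3* (0.84), *flp-21* (1.09) and *flp-12* (0.83). At 25°C those called in either fit changed sign for 11 of the named genes. They were *bli-4*, *daf-2* and *hsf-1* with the same total (0.27, 0.35 and 0.076) and outside ribosomal RNA (0.27, 0.35 and 0.073), *bli-4* with the upper quartile (0.10), *age-1*, *bli-4*, *daf-2*, *dpt-1*, *hsf-1* and *nlp-36* on the germ cell list (0.13, 0.49, 0.56, 0.00082, 0.29 and 0.57), and *akt-2*, *daf-16*, *egl-6*, *flp-10* and *unc-31* on the neuron list (-0.011, -0.84, -0.96, -0.050 and -0.18). Of these *daf-2*, *nlp-36* and *egl-6* passed only under the alternative. The cause was not tested, apart from the smaller number of members tested at the higher minimum.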
